A study of Mus musculus with 26 samples.

Results

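The change from 24 to 48 h in differentiating neural progenitor cells kept under tumor necrosis factor (TNF) was measured on 6 of the 26 arrays of the series, 3 arrays of TNF-treated cells at 24 h and 3 at 48 h. Its members are the 23410 of 35556 probe sets that carry a gene symbol. Neurospheres (NSPs) were grown from neural stem cells of the ventricular zone of E14 C57BL/6J mouse embryos and turned into astrocytes by plating on poly-L-ornithine in medium with fetal bovine serum. All cells compared here received the serum. The TNF groups also received TNF at 50 ng/mL from time 0, so that time under TNF and time of differentiation cannot be told apart within them. Untreated cells at 24 and 48 h, with 3 arrays each, gave the change of the same interval without TNF. The series calls its replicates biological. Each array measured a whole culture, in which more cells of a type and more RNA per cell cannot be told apart.

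TNF binds receptors at the cell surface and, through the IKK kinase, frees NF-κB from its inhibitors, so that it enters the nucleus and switches on genes of defence, survival and signalling. Among these are genes of its own inhibitors, which act as a brake. Some targets answer within hours, while others, such as complement and antigen presentation genes, are known to build up later and to be raised by interferons as well. Astrocytes and the ependymal cells that line the ventricles with motile cilia both descend from radial glia of the ventricular zone.

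The values are log2 RMA signals, in which a difference of 1 means a factor of 2 in brightness, and changes are taken within a probe set. Probes differ in brightness at equal amounts of RNA, so that the percentiles of the next sentences place a gene among all probe sets only roughly. On the 6 arrays *Gfap*, the intermediate filament of astrocytes, lay between 12.34 and 12.96, above 97.2 percent of all probe sets or more. The astrocyte genes *Aqp4*, *Slc1a3* and *Aldoc* and the progenitor genes *Nes* and *Sox2* lay at the 93.9 percentile or above. *Csf1r* and *Aif1* of microglia and *Pecam1* and *Cdh5* of endothelium lay between the 22 and 38.5 percentile, and the microglia gene *Cx3cr1* between 47.8 and 54.3. The neuronal genes *Tubb3* and *Dcx* lay between 41.8 and 67.2, and *Mbp* and *Sox10* of oligodendrocytes between 40.5 and 53.5. Of the fibroblast genes *Col1a1* lay between 54.4 and 62.6 and *Dcn* between 23.1 and 29.8. The arrays correlated with each other at 0.979 to 0.993. Arrays numbered 2 held the highest signals of mitosis genes at both times. Over 21 such genes the medians of arrays 1, 2 and 3 were 6.9, 7.87 and 7.08 at 24 h and 7, 7.74 and 6.99 at 48 h, the summed level ran from 11.61 to 12.38 at 24 h and from 11.49 to 12.16 at 48 h, and 0 of the 21 genes passed the test in either direction.

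Between 24 and 48 h under TNF more probe sets passed the test as higher than as lower, although 39.5 percent of those with a symbol had a change above 0 and the median change was -0.039. In limma's test, with q-values under 0.05 taken as a pass and computed across the 35556 probe sets, 112 probe sets were higher at 48 h (0.478 percent of those with a symbol) and 18 were lower (0.0769 percent). The 112 stood for 101 genes named by a single symbol, and the 18 for 12. In all 130 the 3 arrays of 48 h lay entirely above or entirely below those of 24 h, as they did in 6.51 and 6.73 percent of all probe sets with a symbol. A change of at least 1 was reached by 48 of the higher and 9 of the lower probe sets. Same-numbered arrays of the TNF groups varied together, and with the replicate number as a block 230 probe sets were higher (0.982 percent) and 44 lower (0.188 percent), with all 130 among them. The count of higher probe sets fell to 38 without array 1 of 24 h, 65 without array 2 of 24 h, 55 without array 2 of 48 h and 63 without array 3 of 48 h. Without both arrays numbered 2 the totals were 26 higher and 8 lower, with 26 and 7 of them among the 112 and 18. Of the 130 probe sets, 43 passed without any single one of the 6 arrays, 34 of them higher and 9 lower. That 0 changed sign follows from the separated arrays and is no test. Signals of long against short genes differed between arrays as well. The mean log2 signal of long genes minus that of short genes was 1.453, 1.599 and 1.557 at 24 h and 1.583, 1.632 and 1.509 at 48 h. Called higher genes had a median length of 30398 bases, against 17737 bases for all genes, and the part of this in the calls was not tested.

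Of the 112 higher probe sets, 109 also had a change above 0 without TNF, against 12919 of the 23410 (55.3 percent). Only 24 of the 112 passed the test there as well, in a comparison that called 38 higher probe sets (0.162 percent) and 1 lower (0.00427 percent). Their median change was 0.91 under TNF and 0.56 without, and that of the 18 lower probe sets was -1.05 and -0.23. Since these probe sets were chosen by their change under TNF, smaller medians without TNF follow in part from the choice and are no comparison of the conditions. In the test of the difference between both changes, 0 of the 112 passed, so that a larger rise under TNF was not shown for any single one. Of the 18 lower probe sets 0 passed the test in untreated cells, and for 3 the change itself differed from that without TNF. These 3 were all that passed the test of the difference (0.0128 percent lower, 0 higher). At an unadjusted p under 0.05 limma gave 423 such differences, fewer than the 1170 that this threshold would pass among 23410 probe sets without any difference. The q-values here took the share of unchanged probe sets as 1, which makes them equal to Benjamini-Hochberg values. The count of 3 under that adjustment is therefore no second test.

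**Figure D1:**
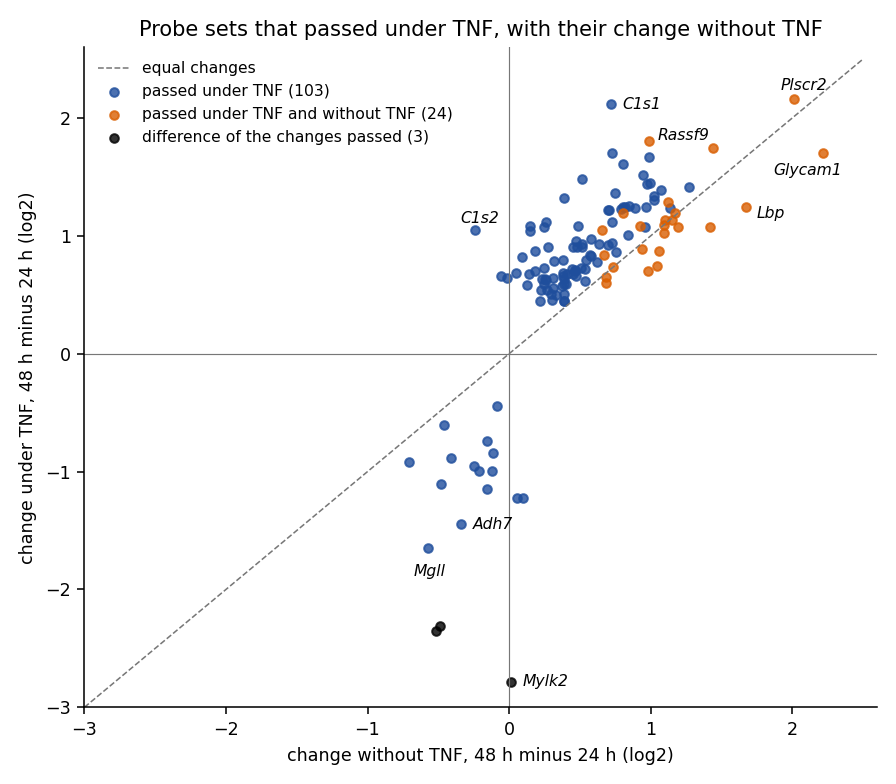
Log2 change from 24 to 48 h under TNF (vertical axis) against the log2 change without TNF (horizontal axis) for the 130 probe sets that passed under TNF, with a dashed line where both are equal. The 24 orange points passed in both conditions, and the 3 black points, Mylk2 among them, passed the test of the difference between the changes.

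*Mylk2*, which encodes the myosin light chain kinase of skeletal muscle, fell most. Its signal on arrays 1, 2 and 3 was 10.28, 11.2 and 10.6 at 24 h and 7.72, 7.96 and 8.05 at 48 h, while the 6 untreated arrays lay between 7.19 and 7.56. TNF-treated cells thus came near the untreated level at 48 h, and no array of 24 h overlapped with one of 48 h. The change was -2.78 (SE 0.183, q = 5.29e-08, n = 3 against 3), that without TNF was 0.01, and the difference between them was -2.8 (q = 2.68e-05). Against untreated cells *Mylk2* was higher by 3.37 at 24 h (q = 4.87e-10) and by 0.58 at 48 h (q = 0.217). These effects share the TNF arrays with the change over time. At 6 h under TNF its mean was 10.04, and at 72 h it was 7.44. *Mylk2* lies on GRCm38 chr2:152911281-152923065, and its call held without any one of the 6 arrays.

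4 probe sets, each assigned to *Gsta1*, *Gsta2*, *Gm3776* and *Gm10639* together, also fell. They are given by number since the array cannot tell those genes apart. Probe set 10587323 had a mean of 8.24 at 24 h and 5.89 at 48 h, a change of -2.35, and probe set 10587331 went from 8.44 to 6.13, a change of -2.31. Without TNF they changed by -0.52 and -0.49, and the differences of -1.84 (q = 0.0218) and -1.82 (q = 0.0177) passed the test. Probe sets 10595148 and 10587339 fell by 1.15 and 1.0. All 4 calls over time held without any one of the 6 arrays. The test of the difference was passed by *Mylk2* alone, though, without array 1 or 2 of 24 h or array 1 or 3 of 48 h under TNF, or without any untreated array but array 2 of 24 h.

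Of the other genes that fell, 3 encode enzymes of alcohols or lipid mediators. *Adh7*, an alcohol dehydrogenase that oxidises retinol, had signals of 9.25, 8.55 and 8.44 at 24 h and 7.09, 7.55 and 7.26 at 48 h, a change of -1.45 (SE 0.185, q = 0.000312). Untreated cells had 6.62 to 7.24 at both times, below all arrays under TNF except that of 7.09. *Mgll*, which breaks down monoacylglycerols such as the endocannabinoid 2-arachidonoylglycerol, had 10.62, 11.9 and 11.37 at 24 h and 9.35, 9.37 and 10.24 at 48 h, a change of -1.65 (SE 0.322, q = 0.0187). *Ptgr1*, an enzyme that reduces prostaglandins and leukotriene B4, changed by -1.11 (q = 0.0167) and lay between 9.37 and 9.92 at 24 h and between 8.38 and 8.77 at 48 h. When single arrays were left out, the change of *Mgll* ran from -1.98 to -1.35 and that of *Ptgr1* from -1.28 to -0.99. The call of each gene was lost in 4 of these fits. For *Mgll* it was lost without array 2 or 3 of 24 h or array 1 or 2 of 48 h. For *Ptgr1* it was lost without array 1 or 2 of 24 h or array 1 or 3 of 48 h.

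Genes of other kinds fell too. *Ahnak2*, a large scaffold protein, had 8.88, 9.09 and 9.21 at 24 h and 7.61, 7.74 and 8.14 at 48 h, a change of -1.23 (SE 0.204, q = 0.00473). In untreated cells it stayed between 7.34 and 8.06, with a change of 0.10, and the difference between the changes of -1.33 did not pass (q = 0.624). *Rnase2b*, a ribonuclease of the eosinophil-associated family, went from 6.7, 7.12 and 7.65 to 6.1, 5.71 and 6, a change of -1.22 (SE 0.199, q = 0.00398), while untreated arrays lay between 5.74 and 6.18. Both calls held without any one of the 6 arrays, and in both genes the arrays of 48 h under TNF overlapped with those of untreated cells.

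*Nid1*, the basement membrane protein nidogen, changed by -0.95 (q = 0.0062), a call lost without array 2 of 24 h. *Mertk*, a receptor by which astrocytes take up dying cells and synapses, changed by -0.92 (q = 0.0101) under TNF and by -0.71 (q = 0.148) without. Its call was lost without array 2 or 3 of 24 h or array 2 of 48 h. *Gadd45b*, a stress gene that NF-κB induces, went from 11.34, 11.47 and 11.75 to 10.47, 10.58 and 10.86, a change of -0.89 (q = 0.0187) against -0.41 without TNF. *Nyx* (-0.84), the mitochondrial carrier gene *Slc25a45* (-0.74) and the nuclear protein gene *Aff2* (-0.60) complete the 12. The call of *Gadd45b* was lost without array 2 or 3 of 24 h or array 1 or 2 of 48 h, that of *Nyx* without array 1 or 2 of 24 h or array 2 or 3 of 48 h, that of *Slc25a45* without array 1 or 2 of either time, and that of *Aff2* without any one array but array 1 of 48 h.

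**Figure D2:**
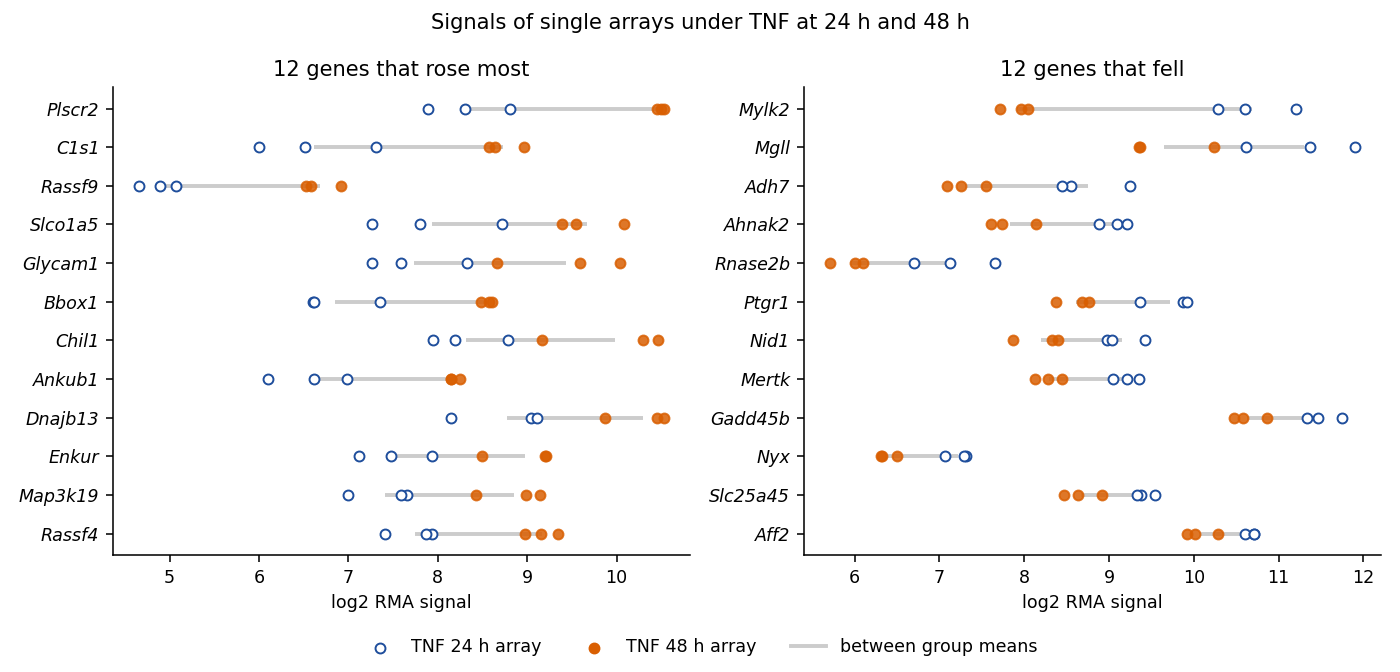
Log2 signal of single arrays (horizontal axis) of the 12 genes that rose most and the 12 that fell under TNF, with open blue circles for the 3 arrays of 24 h, orange circles for the 3 arrays of 48 h and a grey line between the group means. In each gene both groups of 3 arrays lie apart, from Mylk2 with a change of -2.78 to Plscr2 with 2.16.

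*Plscr2*, of the phospholipid scramblase family, rose most. On arrays 1, 2 and 3 it had 7.89, 8.3 and 8.81 at 24 h and 10.53, 10.5 and 10.45 at 48 h under TNF, a change of 2.16 (SE 0.217, q = 2.14e-05). Without TNF it rose by 2.02 (q = 0.000118), from 8.72 to 9.49 over the arrays of 24 h to 11.13 to 11.27 over those of 48 h. Both conditions climbed over the whole time course, with means of 5.52 in untreated cells at 0 h, 11.56 at 72 h, and 11.14 at 72 h under TNF. *Slco1a5*, an organic anion transporter, behaved alike, with 7.26, 8.72 and 7.8 at 24 h, 9.55, 10.08 and 9.39 at 48 h, and a change of 1.74 (SE 0.262, q = 0.00189) against 1.44 without TNF (q = 0.0287). *Glycam1*, a mucin-like ligand of L-selectin, rose by 1.70 (SE 0.365, q = 0.0391) under TNF and by 2.22 (q = 0.0116) without. Its level under TNF was lower, with 8.66 to 10.04 at 48 h against 11.92 to 12.84 in untreated cells, and its call was lost without array 1 or 2 of 24 h or array 1 or 3 of 48 h.

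The next genes had changes of 0.73 to 1.27 without TNF, which passed the test for *Rassf9* alone. *Rassf9*, a protein with a Ras association domain, had 4.66, 4.89 and 5.07 at 24 h and 6.53, 6.92 and 6.58 at 48 h, a change of 1.80 (SE 0.164, q = 4.52e-06) against 0.99 without TNF (q = 0.0116). *Ankub1*, a protein with ankyrin repeats, rose by 1.61 (q = 0.000312) against 0.80, and like *Rassf9* passed without any one array. *Bbox1*, the last enzyme of carnitine synthesis, rose by 1.70 (q = 0.0099) against 0.73. *Chil1*, a secreted chitinase-like protein of reactive astrocytes, had 7.95, 8.79 and 8.19 at 24 h and 10.3, 9.17 and 10.46 at 48 h, a change of 1.67 (q = 0.0294) against 0.99. *Map3k19*, a kinase, rose by 1.44 (q = 0.0183) against 0.98, and *Rassf4* by 1.42 (q = 0.0479) against 1.27. The call of *Bbox1* was lost without array 1 or 2 of 24 h or array 3 of 48 h, that of *Chil1* without array 1 or 3 of either time, that of *Map3k19* without array 1 or 2 of 24 h or array 1 or 3 of 48 h, and that of *Rassf4* without any one of the 6.

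Complement held more genes that rose than any other of the 37 lists. Of 16 measured complement genes, 5 rose and 0 fell, against 0.497 and 0.0552 percent of all 19938 genes with 1 probe set each. The median change of the 16 was 0.03 under TNF and 0.15 without, and the median of all genes was -0.04. The risers were the proteases and regulator of the first complement step and C4. *C1s1*, a protease of the C1 complex, had 6, 7.31 and 6.51 at 24 h and 8.57, 8.96 and 8.64 at 48 h, a change of 2.12 (SE 0.234, q = 5.73e-05). Without TNF its arrays ran from 4.87 to 6.17 and the change was 0.72 (q = 0.547). Every array under TNF at 48 h lay above every other array of both conditions at these times. The difference between the changes, 1.39, did not pass the test (q = 0.934). Against untreated cells *C1s1* was higher by 1.56 at 24 h (q = 0.00076) and 2.95 at 48 h (q = 1.08e-07).

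*C1s2*, a close relative of *C1s1*, had 6.09, 6.44 and 6.03 at 24 h and 7.01, 7.56 and 7.14 at 48 h, a change of 1.05 (SE 0.19, q = 0.00991) against -0.24 without TNF. The partner protease *C1ra* had 6.82, 6.61 and 6.99 at 24 h and 7.43, 7.81 and 7.66 at 48 h, a change of 0.82 (SE 0.133, q = 0.00363) against 0.09. *Serping1*, the inhibitor of these proteases, rose by 1.24 (q = 0.0308) against 0.97, and *C4b*, which they cleave, by 1.08 (q = 0.0316) against 1.42 without TNF (q = 0.00773). The calls of *C1s1* and *C1ra* held without any one array. That of *C1s2* was lost without array 1 or 3 of 24 h or array 2 of 48 h, that of *C4b* without any one array but array 2 of 48 h, and that of *Serping1* without any one of the 6, so that 2 or 3 complement genes passed in each of these fits. Probe set 10541683, assigned to several genes, rose by 1.48 (q = 0.000666), and since close copies of these proteases exist, signals of *C1ra*, *C1s1* and *C1s2* may be shared with relatives. For C1q, the part of the complex that binds targets, *C1qa* had -0.25, *C1qb* -0.10 and *C1qc* -0.10 with q of 0.812 or above. *Cd59a*, which blocks the last complement step on the cell's own membrane, had 1.76 under TNF (q = 0.203, and q = 0.0199 with the replicate block) and 1.90 without.

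Antigen presentation and interferon-stimulated genes had medians above that of all genes. Of 12 measured genes of MHC class I and antigen processing, 2 rose and 0 fell, against 0.497 and 0.0552 percent of all genes. Their median was 0.25 under TNF and 0.13 without. *H2-Q4*, a class I heavy chain of the Qa group, had 8.05, 8.6 and 8.94 at 24 h and 9.39, 9.67 and 9.9 at 48 h, a change of 1.12 (SE 0.243, q = 0.042), while untreated arrays lay between 7 and 7.56. *Tap1*, which pumps peptides into the endoplasmic reticulum, changed by 0.63 (q = 0.0355) against 0.24. Both lost their call without array 1 of 24 h or array 2 or 3 of 48 h, *H2-Q4* also without array 2 and *Tap1* without array 3 of 24 h, and neither passed after cyclic loess normalization. Class I genes are near copies of each other, so that the probes of *H2-Q4* may read others too.

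Of 20 measured interferon-stimulated genes, 2 rose and 0 fell, against 0.497 and 0.0552 percent of all genes. Of the 20, 16 had a value above 0 under TNF, against 7974 of 19938 genes. Without TNF 16 of the 20 did so too, against 11577 of 19938 genes. Their median was 0.25 under TNF and 0.07 without. *Rtp4*, a chaperone of G protein-coupled receptors, had 6.68, 6.74 and 6.97 at 24 h and 7.31, 7.57 and 7.5 at 48 h, a change of 0.66 (SE 0.132, q = 0.0219) against -0.06 without TNF. *Oasl2*, of the oligoadenylate synthetase family, had 7.65, 7.45 and 7.53 at 24 h and 8.05, 8.32 and 8.02 at 48 h, a change of 0.59 (SE 0.117, q = 0.0219) against 0.24. *Ifit3* had 0.86 (q = 0.108) and *Usp18* 0.49 (q = 0.351), while *Mx1*, *Stat2* and *Bst2* had values from -0.02 to 0.05. Leaving out single arrays ended the call of *Rtp4* for array 1 or 2 of 24 h and array 2 or 3 of 48 h, and that of *Oasl2* for any array of 24 h and array 2 of 48 h.

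**Figure D3:**
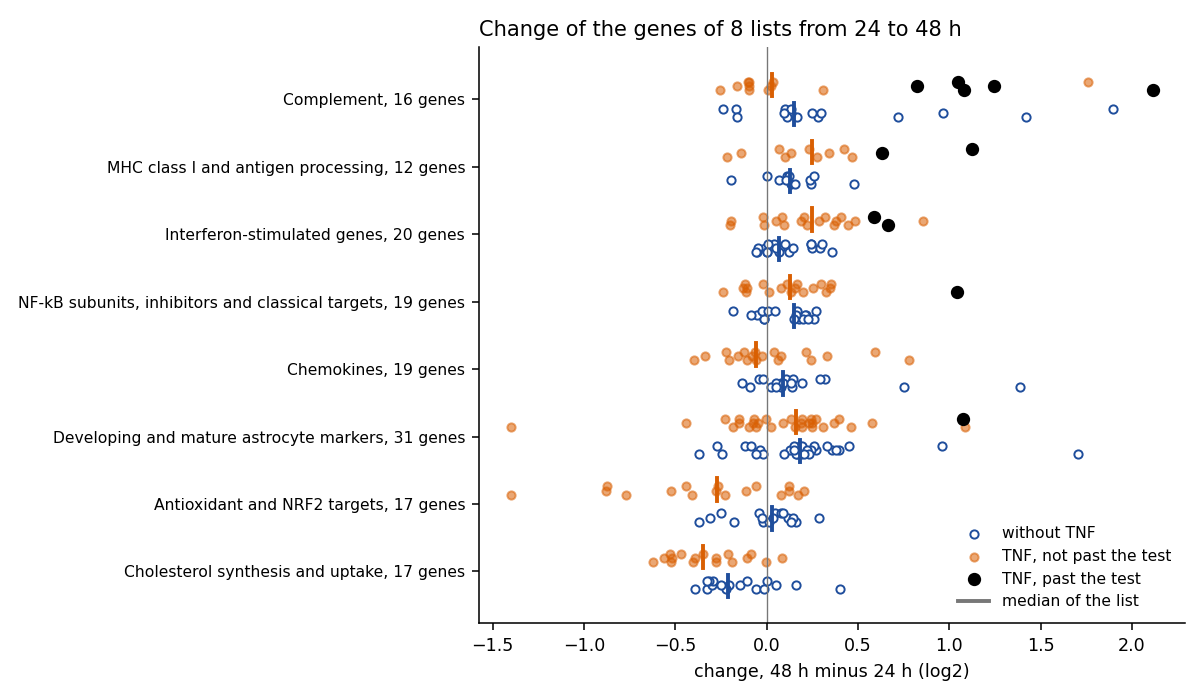
Log2 change from 24 to 48 h of each measured gene of 8 of the 37 lists (horizontal axis), with open blue circles for untreated cells, orange circles for TNF, black circles for genes that passed under TNF, and short bars for the list's medians. The complement list holds 5 black points up to 2.12, and the cholesterol list has 16 of 17 genes below 0 under TNF with 0 black points.

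Of 19 measured NF-κB subunits, inhibitors and classical targets 1 rose, *Nfkbie*, and 0 fell, against 0.497 and 0.0552 percent of all genes, with a median of 0.13 under TNF and 0.15 without. *Nfkbie* encodes the inhibitor IκBε. It had 8.75, 9.08 and 9.05 at 24 h and 9.85, 10.03 and 10.13 at 48 h, a change of 1.04 (SE 0.128, q = 0.000251), and 7.57 to 7.82 on the untreated arrays, where it changed by 0.15. All 6 arrays under TNF lay above all 6 untreated ones, and the call held without any one of the 6 arrays. *Nfkbia*, the inhibitor IκBα, had 12.23, 12.57 and 12.27 at 24 h and 12.34, 12.57 and 12.5 at 48 h, with a change of 0.11 that did not pass. Among 12 genes of the TNF receptor complex and IKK none passed, with values from -0.19 to 0.35.

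Among 19 chemokines 0 passed under TNF, where 0.497 percent of all genes rose and 0.0552 percent fell. *Ccl2* had 0.25 and *Ccl7* -0.22. *Cxcl10*, which draws T cells, had 11.79, 11.65 and 12.23 at 24 h and 12.7, 12.66 and 12.65 at 48 h, with a change of 0.78 (q = 0.164), although the arrays did not overlap. Without TNF *Cxcl10* rose by 1.39 (q = 0.0053) from a level of 6.91 to 7.21. The secreted siderophore carrier *Lcn2* had 0.43, and *Tlr2*, a receptor for bacterial lipoproteins, -0.01. Among the 14 acute phase genes 1 rose, *Lbp*, which presents endotoxin to its receptor. *Lbp* had 11.37, 12.13 and 11.49 at 24 h and 12.82, 13 and 12.89 at 48 h, a change of 1.24 (SE 0.238, q = 0.0163) against 1.67 without TNF (q = 0.0031), and lost its call without array 1 or 3 of 24 h or array 2 or 3 of 48 h. The death receptor *Fas*, 1 of 17 apoptosis genes, rose by 0.60 (q = 0.0364) against 0.68 without TNF (q = 0.0318), a call lost without any one array but array 3 of 48 h.

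Among the 612 measured genes of the 37 lists, 3 fell with the replicate block and did not pass without it. Of all 19938 genes 36 fell with the block and 11 without it. *Tslp*, a cytokine of epithelial barriers, had 6.45, 7.61 and 7.55 at 24 h and 5.65, 6.54 and 6.08 at 48 h, a change of -1.11 (q = 0.0804, and q = 0.00361 with the block). *Ptgs2*, 1 of 10 prostaglandin genes and the inducible enzyme of their synthesis, had 9.54, 10.03 and 8.76 at 24 h and 7.96, 8.86 and 7.29 at 48 h, a change of -1.41 (q = 0.152, and q = 0.00197 with the block). Its groups overlap, yet each array of 48 h is lower than that of the same number at 24 h. *Cd68*, a lysosomal protein that marks microglia and macrophages, had 10.15, 11.89 and 11.08 at 24 h and 8.64, 9.52 and 9.44 at 48 h, a change of -1.84 (q = 0.051, and q = 0.0165 with the block). The other 12 measured microglia and macrophage genes did not pass in either fit, which in so few genes is no departure from the share of all genes. Their summed level without *Cd68* ran from 10.49 to 10.72 at 24 h and from 10.44 to 10.67 at 48 h. *Csf1r*, *Aif1* and *Cx3cr1* among them had changes of -0.18, -0.06 and 0.01.

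**Figure D4:**
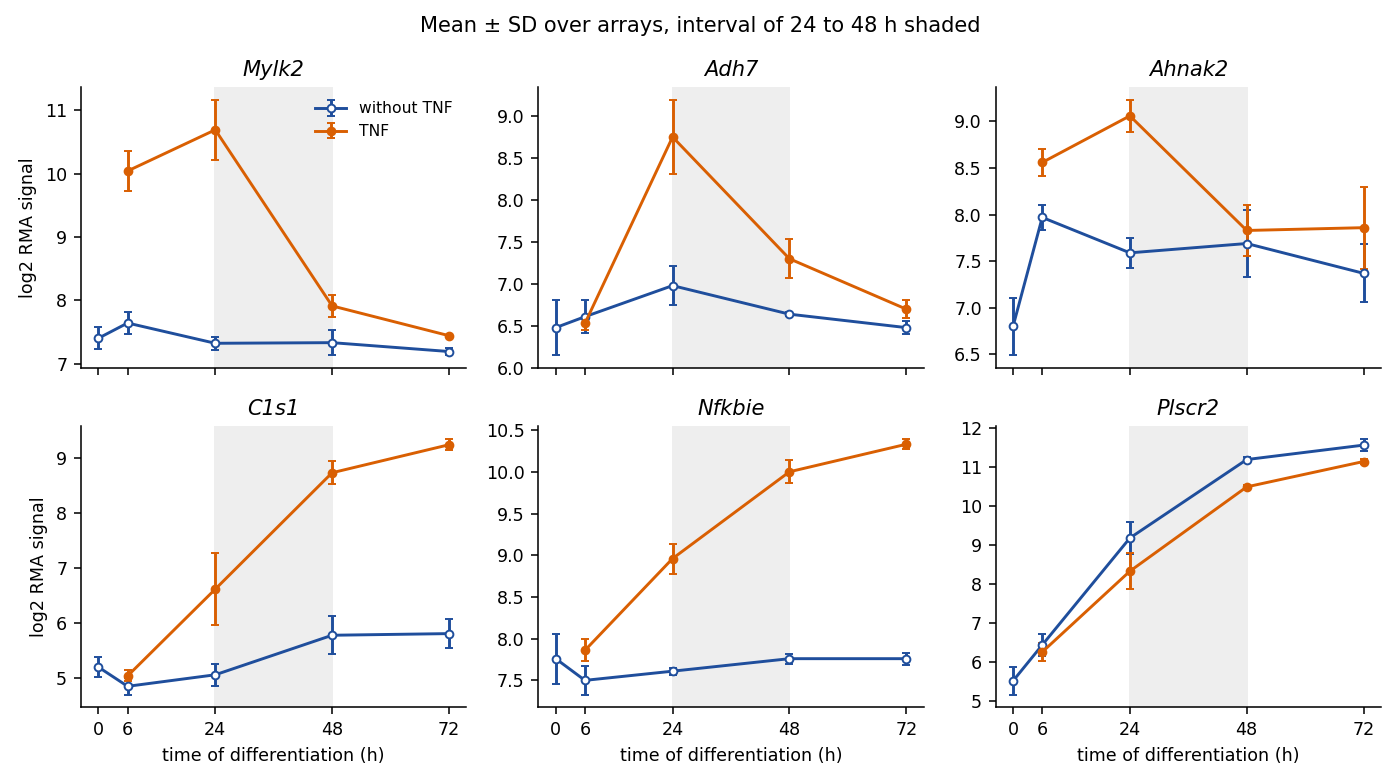
Mean log2 signal with SD bars (vertical axis, n = 3 arrays, or 2 for TNF at 72 h) against hours of differentiation for 6 genes in untreated cells (blue) and under TNF (orange), with 24 to 48 h shaded. In the shaded interval Mylk2, Adh7 and Ahnak2 change by -2.78, -1.45 and -1.23 under TNF and by 0.01, -0.34 and 0.10 without, C1s1 and Nfkbie by 2.12 and 1.04 against 0.72 and 0.15, and Plscr2 by 2.16 against 2.02; of the 6 genes Mylk2 alone passed the test of the difference.

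Genes of motile cilia were among those that rose. The axoneme, the shaft of a motile cilium, is moved by dynein arms that are docked on microtubule doublets and steered by radial spokes and the nexin-dynein regulatory complex. 9 families of cilium genes were chosen by their symbols after the values were seen, so that their counts are a description. Of their 90 genes 9 rose and 0 fell, against 0.497 and 0.0552 percent of all genes. A value above 0 was held by 64 of the 90 under TNF, against 7974 of 19938 genes. Without TNF it was held by 75 of the 90, against 11577 of 19938 genes. The median change was 0.23 under TNF and 0.16 without. With the replicate block 12 rose, where 0.983 percent of all genes did, and without 1 of the 6 arrays 4 to 7 did. Both arrays numbered 2 together left 1. In untreated cells 1 of the 90 passed, where 0.176 percent of all genes rose.

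*Dnali1*, a light chain of inner dynein arms, rose most among them. It had 8.05, 8.22 and 8.23 at 24 h and 9.21, 9.62 and 9.69 at 48 h, a change of 1.34 (SE 0.211, q = 0.00313) against 1.02 without TNF (q = 0.0649). The radial spoke gene *Rsph4a* had 7.16, 7.6 and 7.72 at 24 h and 8.75, 8.98 and 8.48 at 48 h, a change of 1.25 (SE 0.2, q = 0.00363) against 0.82. *Dnajb13*, another radial spoke protein and 1 of the 12 leading risers, had 8.15, 9.04 and 9.11 at 24 h and 9.87, 10.45 and 10.53 at 48 h, a change of 1.52 (SE 0.235, q = 0.00263) against 0.95. In each of these 3 genes the groups did not overlap, and the call held without any one array.

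The heavy chains *Dnah5* of outer and *Dnah9* of distal outer arms rose by 0.68 (q = 0.0138) and 0.72 (q = 0.0381), and the other 13 heavy chains did not pass. In the Cfap family 4 of 31 genes rose, against 0.497 percent of all genes. They were *Cfap206* with 1.05 (q = 8.73e-05), *Cfap61* with 0.90 (q = 0.00514), *Cfap52* with 0.86 (q = 0.0201) and *Cfap46* with 0.57 (q = 0.0486). *Cfap206* anchors a radial spoke, and had 6.49, 6.55 and 6.67 at 24 h and 7.47, 7.69 and 7.68 at 48 h. It was also the family gene that passed without TNF, with 0.65 (q = 0.0299). *Drc7* of the regulatory complex rose by 0.64 (q = 0.039). Dropping single arrays ended no call of *Cfap206* and *Cfap61*, while those of *Dnah9* and *Cfap46* were lost without any one of the 6, and *Dnah5*, *Cfap52* and *Drc7* were lost without array 1 of 24 h, array 2 of 24 h and 1 to 3 others. None of 14 intraflagellar transport genes, 8 Bardet-Biedl genes, 5 tektins and 6 dynein assembly factors passed, and their medians were 0.20, 0.25, -0.14 and 0.06.

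**Figure D5:**
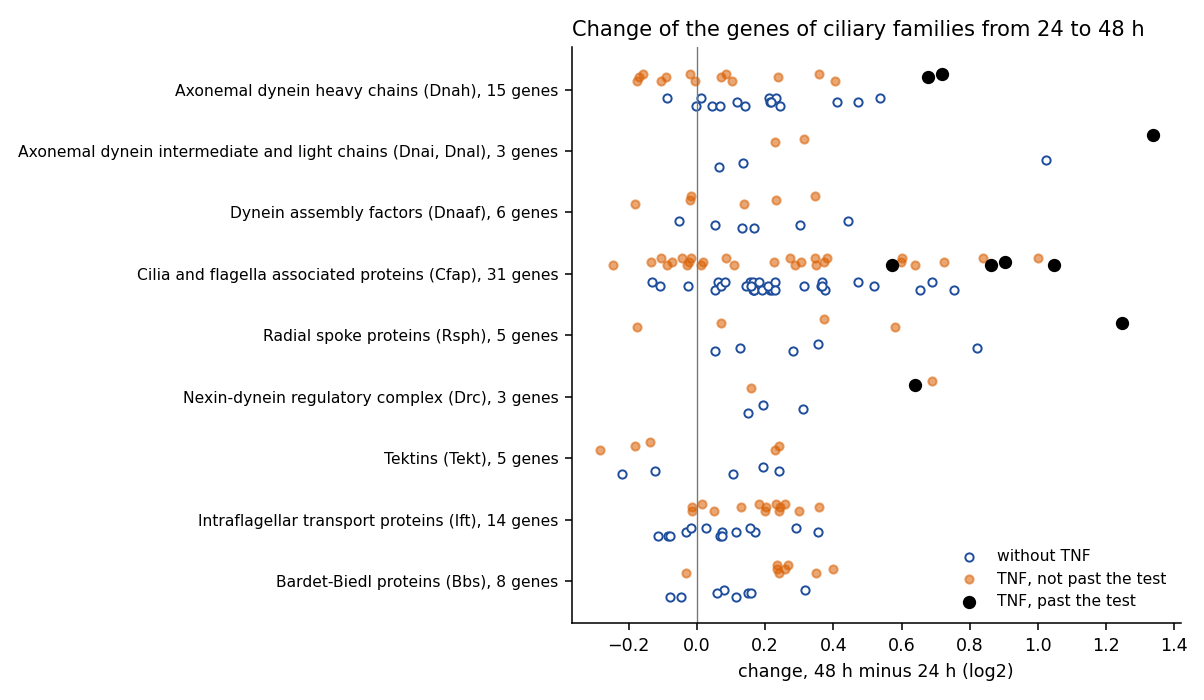
Log2 change from 24 to 48 h (horizontal axis) of 90 genes in 9 families of cilium genes, with open blue circles for untreated cells, orange circles for TNF and black circles for the 9 genes that passed under TNF. The black points run from 0.57 to 1.34 and lie in the dynein, Cfap, radial spoke and regulatory complex families.

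Further risers with a known place in motile cilia or sperm tails were picked out after their values were seen. *Enkur*, with 7.12, 7.48 and 7.93 at 24 h and 9.2, 9.21 and 8.49 at 48 h, rose by 1.45 (SE 0.243, q = 0.00514) against 1.0 without TNF and lost its call without array 1 of 24 h. *Spag6l* of the central pair rose by 1.37 (q = 0.00726), and *Spef2*, also of the central pair, by 1.31 (q = 0.0137) on the highest of its 4 probe sets that passed. The assembly genes *Ccdc40*, *Ccdc151* and *Zmynd10* rose by 0.84, 0.46 and 0.54, and *Kif9*, a kinesin of motile cilia, by 0.83. The call of *Ccdc40* held without any one array, while that of *Spag6l* was lost without array 1 of 24 h or array 2 of 48 h, that of the *Spef2* probe set without array 2 or 3 of 24 h or array 1 or 2 of 48 h, and that of *Zmynd10* without array 2 of 24 h or array 3 of 48 h. *Foxj1*, the main transcription factor of motile cilia, had 10.19 ± 0.13 at 24 h and 10.74 ± 0.23 at 48 h (SD, n = 3), a change of 0.55 (SE 0.135, q = 0.0949, and q = 0.00308 with the replicate block) against 0.38 without TNF. Upstream of it *Mcidas* had -0.19 and *Gmnc* 0.00, and *Rfx2* and *Rfx3*, whose products act with FOXJ1, had -0.18 and -0.17, with q of 0.89 or above for all 4.

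RFX factors bind the X-box, a motif often found before the start of cilium genes. The 250 bases before a start of each gene were searched on both strands, in RefSeq sequences of GRCm38.p6. The motif was GTNNCC and then GNAAC with 3 bases of any kind between them. The 27025 genes with such a sequence gave 560 with a match (2.07 percent). The start used need not be the outermost of the gene, and the window can then overlap the gene's span. A match lay before 5 of 79 genes that rose (6.33 percent), 1 of 11 that fell (9.09 percent, *Mgll*) and 13 of 77 genes of the cilium families (16.9 percent). Within those families it was 1 of 8 risers (12.5 percent) and 12 of 69 others (17.4 percent). Among the 5 risers with a match, *Cfap206*, *Kif9* and *Ccdc151* are cilium genes, while *Etfbkmt*, a mitochondrial methyltransferase gene, and *1700029J07Rik* were not counted as such. The sequences of the 3 cilium genes are shown with the match in capitals, since they hold the cilium genes that rose and carry the motif. All are printed in the direction of the gene. In *Kif9* and *Ccdc151* the whole window lies within the gene's span, and in *Cfap206* a part of it does. All 3 matches lie inside the span. That span begins at 110476738 in *Kif9* and ends at 34730263 in *Cfap206* and at 22002972 in *Ccdc151*. In *Cfap206* and *Kif9* the motif lies on the opposite strand, so that the capitals read GTTNC, 3 bases and GGNNAC, while those of *Ccdc151* fit it on both strands. A match is a description of the letters and not a bound site.
Cfap206, chr4:34730207-34730456, minus strand, match 23 bases before the start: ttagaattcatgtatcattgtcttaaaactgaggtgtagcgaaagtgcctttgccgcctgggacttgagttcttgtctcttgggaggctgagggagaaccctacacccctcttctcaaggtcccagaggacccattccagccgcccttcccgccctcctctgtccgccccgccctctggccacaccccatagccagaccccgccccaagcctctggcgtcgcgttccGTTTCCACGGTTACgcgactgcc
Kif9, chr9:110476744-110476993, plus strand, match 27 bases before the start: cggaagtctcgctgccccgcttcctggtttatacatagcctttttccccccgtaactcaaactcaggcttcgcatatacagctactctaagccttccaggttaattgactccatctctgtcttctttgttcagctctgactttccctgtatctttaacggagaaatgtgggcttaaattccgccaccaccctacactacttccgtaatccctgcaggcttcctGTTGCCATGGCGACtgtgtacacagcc
Ccdc151, chr9:22002635-22002884, minus strand, match 34 bases before the start: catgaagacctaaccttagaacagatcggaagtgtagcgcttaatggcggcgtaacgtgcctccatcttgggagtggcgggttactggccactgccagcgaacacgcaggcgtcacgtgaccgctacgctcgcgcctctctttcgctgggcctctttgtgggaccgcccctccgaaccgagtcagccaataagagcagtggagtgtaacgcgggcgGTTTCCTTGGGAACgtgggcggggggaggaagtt
*Kif9* had 7.74, 7.95 and 7.95 at 24 h and 8.61, 8.8 and 8.73 at 48 h, and *Ccdc151* had 7.75, 7.58 and 7.66 at 24 h and 7.96, 8.07 and 8.32 at 48 h. In both the groups stayed apart, but the call of *Kif9* was lost without array 1 of 24 h or array 2 of 48 h, and that of *Ccdc151* without any one array but array 1 of 48 h.

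Of 31 measured astrocyte markers 1 rose and 0 fell, against 0.497 and 0.0552 percent of all genes. Their median was 0.16 under TNF and 0.18 without. *Clu*, which encodes the secreted chaperone clusterin, had 11.17, 11.33 and 11.37 at 24 h and 12.32, 12.38 and 12.4 at 48 h, a change of 1.07 (SE 0.194, q = 0.00952) against 0.96 without TNF (q = 0.0555), and lost its call without array 1 of 24 h or array 2 or 3 of 48 h. With the replicate block 3 rose, the others being the bicarbonate transporter *Slc4a4* with 0.58 (q = 0.234, and q = 0.00355 with the block) and *Mlc1* with 0.37 (q = 0.174, and q = 0.0397). *Gfap* had 12.44, 12.93 and 12.96 at 24 h and 12.34, 12.65 and 12.78 at 48 h, with a change of -0.18 that did not pass. *Aldh1a1*, a retinaldehyde dehydrogenase, had -0.07, and its arrays under TNF ran from 8.82 to 9.98 against 10.7 to 11.86 without.

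Of the signalling pathways of differentiation, the WNT list held genes that passed. In it 2 of 19 genes rose, where 0.497 percent of all genes did, *Sfrp1*, a secreted WNT inhibitor, and the ligand *Wnt5a*. *Sfrp1* had 7.54, 7.81 and 7.96 at 24 h and 8.87, 9.39 and 8.76 at 48 h, a change of 1.24 (SE 0.226, q = 0.0103) against 0.89, and lost its call without array 1 of 24 h or array 2 of 48 h. *Wnt5a* went from 9.22, 9.34 and 9.52 to 10.08, 9.91 and 10.06, a change of 0.66 (SE 0.106, q = 0.00363) against 0.47, and passed without any one array. Among 18 Notch genes, 20 BMP genes and 15 JAK-STAT3 genes none passed. *Hes1*, *Hes5*, *Id1*, *Id3* and *Stat3* had values from -0.35 to 0.13. *Socs3*, the feedback inhibitor that STAT3 induces, had 8.99, 8.92 and 8.96 at 24 h and 9.24, 9.17 and 9.5 at 48 h, a value of 0.35 (q = 0.855) against 0.67 without TNF (q = 0.29). The oncostatin M receptor *Osmr* had the highest value of the 15 JAK-STAT3 genes, 0.56 (q = 0.797) against 1.08 without TNF (q = 0.162), and in both genes the groups under TNF did not overlap.

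In lists of growth, stem cells and other cell types 0 genes passed, and with 0.497 percent of all genes higher and 0.0552 percent lower 0 in a list of such a size is no departure from the share of all genes. None of 24 DNA replication genes, 21 mitosis genes, 18 stem and progenitor genes, 22 neuronal, 14 oligodendrocyte, 13 endothelial and 12 fibroblast genes passed. *Mki67* had 6.93, 7.87 and 6.65 at 24 h and 6.59, 6.89 and 6.48 at 48 h. Nor did any of 20 immediate early genes, 16 clock genes, 12 genes of ERK feedback, 16 genes of CDK inhibitors, D cyclins and p53 targets, 6 MHC class II genes, 16 inflammatory cytokines, 20 matrix proteases, 26 matrix genes and 25 genes of the amino acid and ER stress response. Of 20 contractile genes *Mylk2* was the single one that fell. The hypoxia gene *Ndrg1*, 1 of 20, had 8.7, 8.61 and 8.73 at 24 h and 9.4, 9.85 and 9.51 at 48 h, a change of 0.91 (SE 0.163, q = 0.00936) against 0.28, and lost its call without array 1 or 2 of 24 h or array 2 of 48 h. The retinol dehydrogenase *Rdh10*, 1 of 14 retinoid genes, had 0.71 and passed with the replicate block alone (q = 0.0383).

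The lists of cholesterol genes and of antioxidant genes had the lowest medians of the 37. In either 0 genes passed the test, where 0.0552 percent of all genes fell. Of 17 genes of cholesterol synthesis and uptake 16 had a value below 0 and 0 passed, with a median of -0.35 under TNF, -0.21 without and -0.04 over all genes. In 13 of the 17 the arrays of 48 h lay entirely below those of 24 h, against 6.38 percent of all genes. *Idi1*, an early enzyme of the pathway, had 11.11, 11.45 and 11.16 at 24 h and 10.78, 10.77 and 10.29 at 48 h, a value of -0.62 (q = 0.782). The 17 antioxidant and NRF2 target genes had a median of -0.27 under TNF and 0.03 without, and 0 passed. Of them 7 were lower at an unadjusted p under 0.05 in limma's test, as were 533 of all 19938 genes. Lists hold only probe sets with 1 symbol, so that the 4 that fell and are shared by *Gsta1*, *Gsta2* and others were not counted. *Slc7a11*, the cystine importer, had 12.71, 12.48 and 11.88 at 24 h and 10.89, 11.24 and 10.74 at 48 h, a value of -1.40 (q = 0.137) with groups that did not overlap, and *Nqo1* had -0.88 (q = 0.203).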

How the data were processed

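The authors deposited log2 signals of Affymetrix MoGene 1.0 ST arrays, made with RMA from oligo in R 3.3.1 (the submitters' processing notes name no oligo version). RMA corrects background, forces one distribution on all arrays and averages probes, which can flatten shifts shared by most genes. The log2 values were used as deposited. Of 35556 probe sets 21789 have 1 symbol, 1621 several and 12146 none. In lists each of 19938 genes was represented by its brightest probe set.

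limma 3.58.1 in R 4.3.3 fitted 9 group means over 26 arrays (17 residual degrees of freedom), and a change passed at a q-value (own implementation of the smoother) under 0.05 over all probe sets. The fit was tested on simulated data with independent noise for each array, which leaves out the shared deviations of same-numbered arrays. Replicate numbers were taken as pairs for TNF, where deviations of same-numbered arrays from the group means correlated at 0.429, 0.435 and 0.176. They were not for untreated cells (0.312, 0.518 and 0.061). Under TNF array 3 of 24 h reached 0.146 with a 48 h array of another number, close to its 0.176. The labels do not say what a number marks, and the block was fitted over all 26 arrays.

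Named were the 12 highest and 12 lowest genes that passed with separated arrays, genes the study names, up to 4 genes of each list that passed (else the one with the largest change) and those whose changes differed. The members and the 37 lists (653 genes, 612 measured) were chosen with earlier results of these data known. The cilium families, the other cilium genes, *C1qa*, *C1qb*, *C1qc*, *C1ra*, *Cd59a*, *Slc4a4*, *Mlc1*, *Nqo1*, *Ifit3*, *Usp18*, *Mx1*, *Stat2*, *Bst2* and the markers of other cells were picked after their values were seen. Raw array files were not analysed here.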

Additional observations from a re-analysis of the deposited data

Results flagged for a closer look

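For 3 probe sets the change from 24 to 48 h differed between TNF-treated and untreated cells in limma's test of the difference itself. For *Mylk2* the change under TNF minus that without was -2.8 (q = 2.68e-05), with a lower signal at 48 h on 3 of 3 arrays under TNF. For probe sets 10587323 and 10587331, each assigned to several genes, it was -1.84 (q = 0.0218) and -1.82 (q = 0.0177).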

How the results depend on the processing

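Under TNF 112 probe sets were higher and 18 lower in the main fit. Each alternative gave its own totals, which need not hold the same probe sets. Benjamini-Hochberg adjustment gave 105 and 17, cyclic loess 114 and 20, and an intensity trend with a robust prior 108 and 18. Leaving out the dimmest 40 percent of probe sets gave 98 and 13. Of the 112 and 18, cyclic loess kept 98 and 17, and the fit without dim probe sets kept 88 and 10. The replicate block, fitted because same-numbered TNF arrays varied together, gave 230 and 44. Array weights gave 221 and 66. In that fit array 3 of untreated cells at 6 h had a weight of 40.44, while the 6 arrays compared had 0.46 to 1.73. A minimum change of 1 gave 48 and 9, and a fit of the 6 arrays alone, which has fewer residual degrees of freedom, gave 16 and 6. With the replicate block in that small fit there were 84 and 22. Of the 112 and 18 probe sets of the main fit, the 6 arrays alone kept 13 and 5. With the block they kept 47 and 11. Leaving out the arrays of replicate number 2 at both times, an alternative chosen after seeing the data, gave 26 and 8. Each array left out in turn gave 38 to 110 higher and 12 to 23 lower.

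For untreated cells 39 probe sets passed, and 15 to 24 did when single arrays were left out. The replicate block gave 104 there, where the numbers were not taken as pairs since the correlation of replicate 3 was 0.061, below that with another number (0.191). The difference of the changes was passed by 3 probe sets, by 1 after cyclic loess or without dim probe sets, by 4 with the replicate block and by 1 to 4 without single arrays. *Mylk2* was among them in every one of these fits. The causes were not tested. Of the 38 named genes that passed, 12 did so without any one of the 6 arrays. No direction of these 38 was reversed under any alternative, which for arrays left out follows from groups that do not overlap. Among the 81 genes named by the rule, the block ended no call and added 4 under TNF (*Tslp*, *Ptgs2*, *Cd68* and *Rdh10*) and 6 without TNF (*Clu*, *Dnajb13*, *Map3k19*, *Omd*, *Rassf4* and *Sfrp1*). The 3 arrays per group limit the precision of every value, and an array gives no read depth.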
